A study of Mus musculus with 26 samples.

Results

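Il33, the receptor subunit genes Il4ra, Il13ra1 and Il1rl1, and Tslp were followed in the left lungs of mice exposed to ozone (O3). These 5 genes were chosen by name as the cytokine and receptor genes at the start of the type 2 pathway. The choice was made with earlier results of these data known. Of the 5 genes, 4 were measured among the 12394 genes compared. No probe set is named Il1rl1 in the array annotation used, so that gene is not analysed here. Each gene was read from the probe set with the highest mean among those that carry its symbol alone, and values are log2 intensities, so that a difference of 1 is a 2-fold difference.

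The mice were males of 6 to 8 weeks. Il10-/- mice were of strain B6.129P2-Il10tm1Cgn/J, which lacks a functional Il10 gene in all cells from birth, and Il10+/+ mice were C57BL/6. Both genotypes breathed either O3, at 0.3 ppm, or clean filtered air during 23.5 hr of each day. There were 3 arrays per genotype after 24, 48 and 72 hr of O3, and 2 per genotype in air at 24 hr and 2 at 48 hr, with no air arrays at 72 hr, and the air arrays of a genotype were pooled. Of the 26 arrays, 25 were used: the array of Il10-/- mice in O3 for 24 hr numbered replicate 2 was left out, since its Pearson's r with the other arrays was 0.847 to 0.879, against at least 0.9645 among the others, and Il10-/- mice in O3 for 24 hr therefore had 2 arrays.

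The median of an array lay between 6.54 and 6.68. The mean of 9 markers of alveolar type 2 cells was 12.53 to 12.74 on the 25 arrays, and 7.29 on the one left out, so the lung label was met on the arrays used. The probe set of Il10, the targeted gene, had values of 6.29 to 7.71 on the Il10-/- arrays, other than 3.87 on the array labelled Il10-/- air 48 hr replicate 1, and of 3.92 to 4.25 on the Il10+/+ arrays. Whether it reads the disrupted part of the gene is not given in the sources used here, so its level does not settle the genotype of any array. The array at 3.87 is among the 4 Il10-/- air arrays used below. Without it, Il33 and Il4ra kept each of their calls against air and between genotypes. Differences between O3 times were not refitted without it. In whole lung, fewer cells of a type and less RNA per cell cannot be told apart.

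As background, IL-33 is an IL-1 family cytokine kept in the nucleus of epithelial and other barrier cells and released when they are damaged. It binds ST2, the product of Il1rl1, on group 2 innate lymphoid cells, mast cells and T helper 2 cells, which then make IL-5 and IL-13. IL-13 acts through a pair of the chains encoded by Il4ra and Il13ra1, IL-4 through Il4ra with Il13ra1 or the common gamma chain, and both signal through STAT6. TSLP is another epithelial cytokine with effects on the same lymphoid cells.

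The ligand gene Il33 rose after O3 in both genotypes, about 2-fold over the 3 exposure times, and no difference between the genotypes passed the threshold. In Il10-/- lungs its values were 9.49, 9.47, 9.80 and 9.97 in air, 10.74 and 9.93 after 24 hr of O3, 10.75, 11.22 and 11.12 after 48 hr, and 10.70, 10.54 and 10.81 after 72 hr. In Il10+/+ lungs they were 9.33, 9.88, 9.99 and 9.11 in air, 10.09, 10.63 and 10.27 after 24 hr, 10.93, 10.79 and 10.76 after 48 hr, and 10.77, 10.79 and 10.75 after 72 hr. Every O3 array of 48 and 72 hr lay above every air array of its genotype. At 24 hr all 3 Il10+/+ arrays lay above air, while 1 of the 2 Il10-/- arrays, at 9.93, lay within the range of air.

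**Figure D1:**
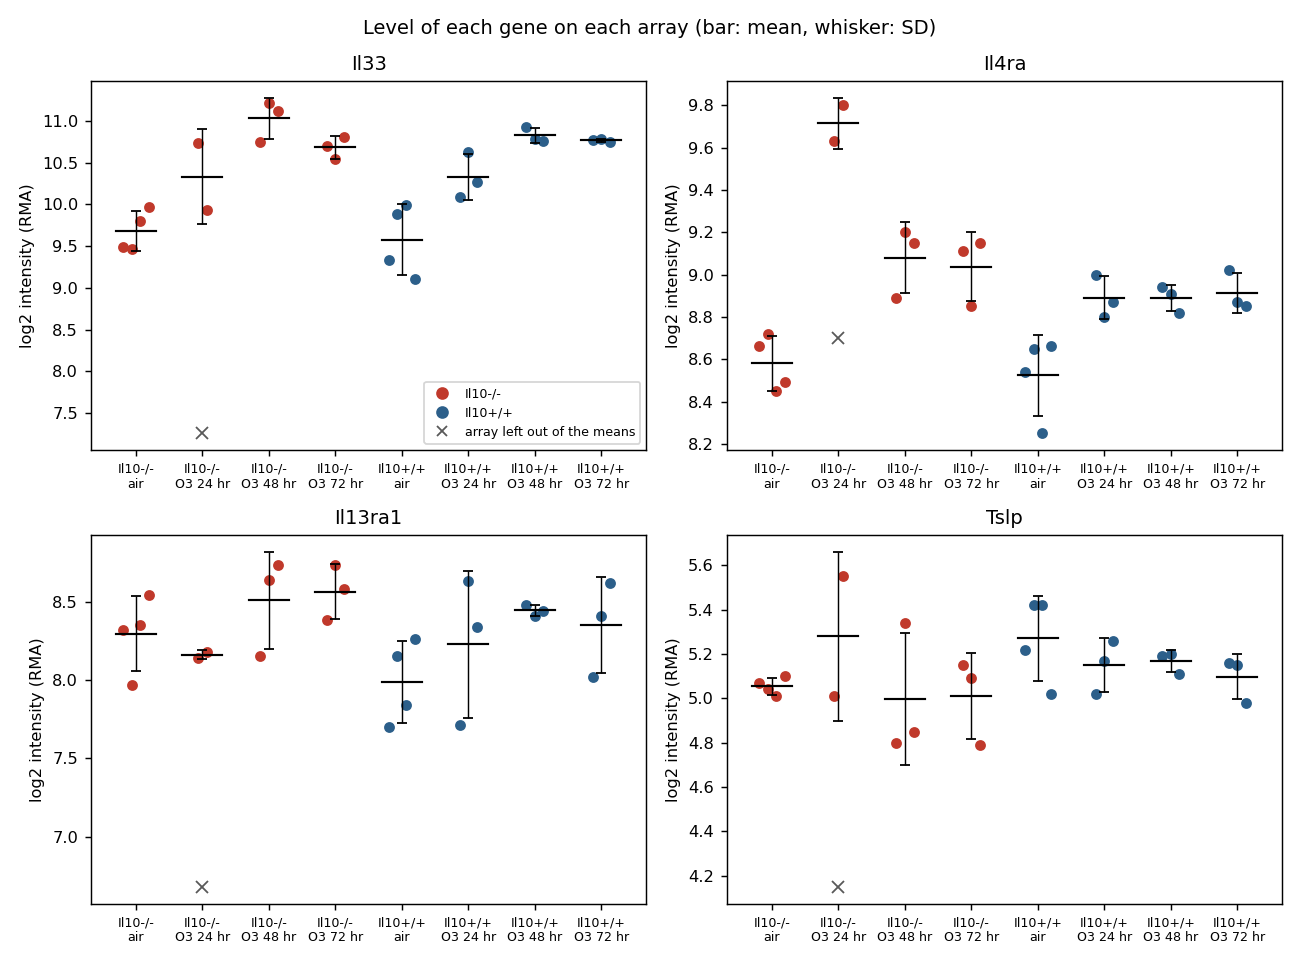
Log2 intensity of Il33, Il4ra, Il13ra1 and Tslp on each array (points), in Il10-/- and then Il10+/+ lungs, in air and after 24, 48 and 72 hr of O3, with the mean (bar) and SD (whisker) of each group and the left-out array as a cross. The 2 Il4ra points of Il10-/- lungs at 24 hr of O3, at 9.63 and 9.80, lie above all others of that gene.

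Against air, the log2 change of Il33 over the 3 times of O3 was 1.00 (SE 0.16, adjusted p = 0.000425) in Il10-/- lungs and 1.06 (SE 0.16, adjusted p = 0.000375) in Il10+/+ lungs by limma with Benjamini-Hochberg adjustment. In that comparison 7.55% of all genes were called in Il10-/- lungs and 3.66% in Il10+/+ lungs, at an adjusted p under 0.05, and the called members were Il33 and Il4ra, 2 of the 4 measured, in both. By time, the change in Il10-/- lungs was 0.65 (SE 0.23, adjusted p = 0.14) at 24 hr, 1.35 (SE 0.20, adjusted p = 0.000167) at 48 hr and 1.00 (SE 0.20, adjusted p = 0.00407) at 72 hr. In Il10+/+ lungs it was 0.75 (SE 0.20, adjusted p = 0.33) at 24 hr, 1.25 (SE 0.20, adjusted p = 0.00066) at 48 hr and 1.19 (SE 0.20, adjusted p = 0.00083) at 72 hr. The share of genes called was 2.09%, 6.33% and 5.87% at 24, 48 and 72 hr in Il10-/- lungs and 0.0484%, 3.71% and 3.15% in Il10+/+ lungs, so the step at which Il33 was first called is also the step at which more genes were called.

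The 24 hr value of Il33 in Il10-/- lungs rested on 2 arrays that differed: without replicate 3, at 9.93, the change was 1.06 (adjusted p = 0.00946), and without replicate 1, at 10.74, it was 0.24 (adjusted p = 0.663). Over all 26 arrays Il33 was not called over the 3 times, with a change of 0.66 (adjusted p = 0.378) in Il10-/- lungs and 1.06 (adjusted p = 0.334) in Il10+/+ lungs. Its value on the left-out array was 7.26. That array had a mean of 7.29 over 9 alveolar type 2 cell markers, against at least 12.53 on the others. Its mean over 10 B cell markers was 10.43, against at most 7.69 on the others.

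Between O3 times, Il33 was 0.70 (SE 0.24, adjusted p = 0.113) higher at 48 than at 24 hr and 0.35 (SE 0.24, adjusted p = 0.44) higher at 72 than at 24 hr in Il10-/- lungs. In Il10+/+ lungs the same differences were 0.50 (SE 0.22, adjusted p = 0.439) and 0.44 (SE 0.22, adjusted p = 0.61). None passed the threshold, which 3.29% and 3.71% of genes passed in Il10-/- lungs and 0.888% and 1.19% in Il10+/+ lungs. Ranked by mean, the 2 air groups were lowest, at 9.68 ± 0.24 in Il10-/- and 9.58 ± 0.42 in Il10+/+ lungs (SD, n = 4 each), and the Il10-/- lungs at 48 hr were highest, at 11.03 ± 0.25 (SD, n = 3). In that order each of the 6 O3 groups overlapped a neighbouring O3 group.

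Between genotypes, Il33 differed by 0.04 over O3 (SE 0.13, 95% interval -0.23 to 0.31, adjusted p = 0.94) and by 0.10 in air (95% interval -0.29 to 0.49, adjusted p = 0.957), Il10-/- minus Il10+/+. The O3 response differed between genotypes by -0.06 over the 3 times (95% interval -0.54 to 0.41, adjusted p = 1). These intervals leave room for differences up to about that size and do not show that the genotypes were equal.

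Il33 lies at chr19:29925113-29960718 in GRCm38.p6, and RefSeq gives it a pair of start sites 20677 bases apart. The promoters, of 250 bases before and 50 after each start, are shown because Il33 is the member with the largest change over the 3 times in both genotypes. They were searched on both strands for AP-1 (TGANTCA), STAT sites with TTC and GAA spaced by 3 or by 4 bases (the wider spacing is preferred by STAT6), NF-kB (GGGA and CC spaced by 4 bases) and the TATA box (TATAAA), and capitals mark each match. The first window is chr19:29924863-29925162 and the second chr19:29945540-29945839, both on the plus strand, from RefSeq.
Il33 start 1: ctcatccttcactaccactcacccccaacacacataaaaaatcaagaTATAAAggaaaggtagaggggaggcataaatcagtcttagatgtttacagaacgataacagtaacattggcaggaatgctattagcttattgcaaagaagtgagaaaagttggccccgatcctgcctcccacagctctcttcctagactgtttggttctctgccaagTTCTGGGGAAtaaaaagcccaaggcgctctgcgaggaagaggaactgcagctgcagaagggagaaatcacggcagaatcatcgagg
Il33 start 2: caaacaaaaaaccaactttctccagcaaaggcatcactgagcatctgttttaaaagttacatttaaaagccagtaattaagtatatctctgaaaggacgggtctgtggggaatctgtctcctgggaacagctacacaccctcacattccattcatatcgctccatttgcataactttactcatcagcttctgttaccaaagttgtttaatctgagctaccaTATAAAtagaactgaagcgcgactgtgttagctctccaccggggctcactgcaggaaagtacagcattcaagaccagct

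The first promoter holds a STAT6-type match that begins 36 bases before the start and a TATAAA 203 bases before it. The second holds a TATAAA 29 bases before the start and none of the other motifs. Of 32851 RefSeq promoters of this length, 6.95% hold the STAT6 motif, 13.6% TATAAA, 7.81% the AP-1 motif, 8.3% the narrower STAT motif and 20.7% the NF-kB motif. The matches are descriptions of the letters, and the array values do not tell which start was used.

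Il4ra, the chain shared by the IL-4 and IL-13 receptors, rose after O3 in both genotypes, with its highest level in Il10-/- lungs at 24 hr. In Il10-/- lungs its values were 8.66, 8.72, 8.45 and 8.49 in air, 9.63 and 9.80 after 24 hr of O3, 8.89, 9.20 and 9.15 after 48 hr, and 9.11, 8.85 and 9.15 after 72 hr. In Il10+/+ lungs they were 8.54, 8.65, 8.25 and 8.66 in air, 9.0, 8.80 and 8.87 after 24 hr, 8.94, 8.91 and 8.82 after 48 hr, and 9.02, 8.87 and 8.85 after 72 hr. All O3 arrays lay above all air arrays of the same genotype. The 2 Il10-/- arrays of 24 hr lay above every other array, while the 48 and 72 hr arrays of the genotypes overlapped.

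The log2 change of Il4ra against air in Il10-/- lungs was 1.14 (SE 0.12, adjusted p = 8.06e-05) at 24 hr, which is 2.2-fold and the lowest p of the 12394 genes in that comparison. It was 0.50 (SE 0.11, adjusted p = 0.00552) at 48 hr and 0.46 (SE 0.11, adjusted p = 0.0132) at 72 hr. In Il10+/+ lungs it was 0.37 (SE 0.11, adjusted p = 0.426) at 24 hr, 0.36 (SE 0.11, adjusted p = 0.0681) at 48 hr and 0.38 (SE 0.11, adjusted p = 0.0549) at 72 hr. The level in Il10+/+ lungs was thus nearly the same at the 3 times, and no single time passed the threshold. Over the 3 times the change was 0.70 (SE 0.09, adjusted p = 2.86e-05) in Il10-/- lungs and 0.37 (SE 0.08, adjusted p = 0.0138) in Il10+/+ lungs.

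**Figure D2:**
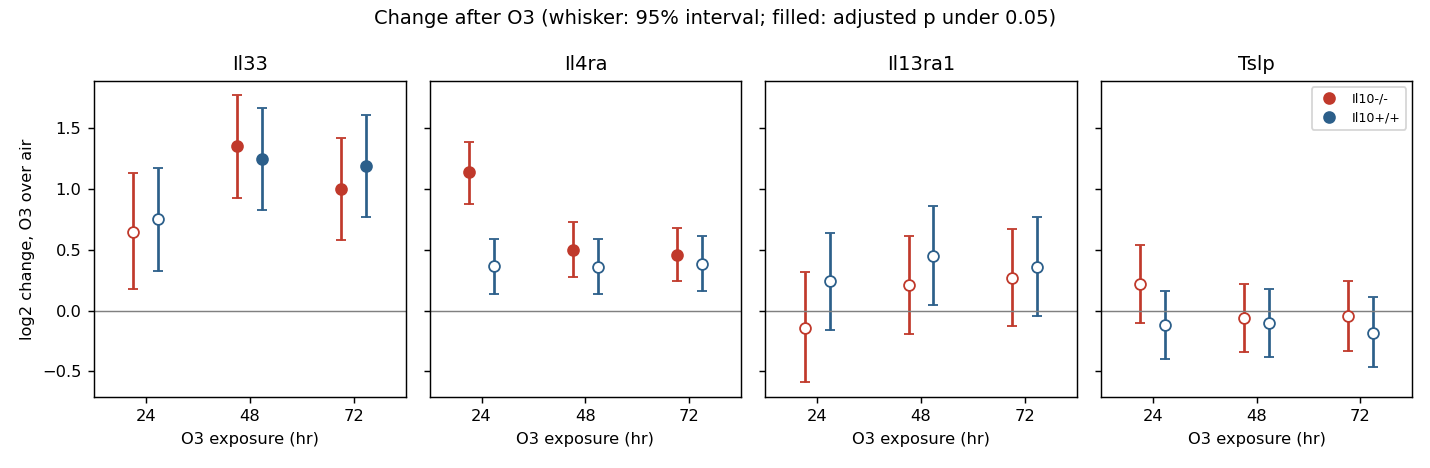
Log2 change of O3 over air (vertical axis) after 24, 48 and 72 hr of exposure in Il10-/- and Il10+/+ lungs, with 95% intervals from limma as whiskers and filled points where the adjusted p was under 0.05. For Il4ra the change in Il10-/- lungs was 1.14 at 24 hr and 0.46 at 72 hr, while in Il10+/+ lungs it stayed between 0.36 and 0.38.

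Within Il10-/- lungs, Il4ra was lower at 48 than at 24 hr of O3, by a log2 difference of -0.64 (SE 0.13, adjusted p = 0.00819), and lower at 72 than at 24 hr, by -0.68 (SE 0.13, adjusted p = 0.00505). In Il10+/+ lungs the same differences were 0.00 (95% interval -0.24 to 0.24) and 0.02 (95% interval -0.22 to 0.26). Il33 had its lowest O3 mean in Il10-/- lungs at 24 hr, with differences between times that did not pass the threshold.

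Between genotypes, Il4ra in O3 at 24 hr was higher in Il10-/- lungs by 0.82 (SE 0.13, adjusted p = 0.00386), in a comparison where 0.662% of genes were called. The difference was 0.05 in air (95% interval -0.16 to 0.26), 0.19 at 48 hr of O3 (95% interval -0.05 to 0.43) and 0.13 at 72 hr (95% interval -0.11 to 0.37), none past the threshold, comparisons in which 0.00807%, 0.00807% and 0.0242% of genes were called. Averaged over O3 it was 0.38 (SE 0.07, adjusted p = 0.00894), with 0.637% of genes called, but without the 24 hr arrays of Il10-/- lungs it was 0.16 (adjusted p = 0.851), an alternative chosen after seeing the data. The difference over O3 thus rests on 2 arrays.

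The test of the genotype difference in the O3 response itself gave 0.77 for Il4ra at 24 hr (SE 0.16, 95% interval 0.43 to 1.11, unadjusted p = 0.000115, adjusted p = 0.245). The F test over the 3 times gave an adjusted p of 0.85 (unadjusted p = 0.000754). By limma 0 of 12394 genes passed the F test, and 417 had an unadjusted p under 0.05. A difference between genotypes in the response of Il4ra is therefore not shown after adjustment over all genes.

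Both 24 hr calls of Il4ra were lost when the fit held no arrays but those compared, where the change in Il10-/- lungs was 1.14 with an adjusted p of 0.0806 and the genotype difference 0.82 with an adjusted p of 0.575. Over all 26 arrays, with the left-out array back in its group, the change in Il10-/- lungs was smaller and still called, at 0.80 (adjusted p = 0.0183), and the genotype difference was 0.48 (adjusted p = 0.179). In Il10+/+ lungs the call over the 3 times was lost without the air array of 48 hr numbered replicate 1, with a change of 0.28 (adjusted p = 0.0805), and in Il10-/- lungs the 72 hr call was lost without replicate 1 (0.42, adjusted p = 0.0568) or replicate 3 (0.40, adjusted p = 0.102) of that group.

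The array carries 3 probe sets named Il4ra, and they did not all pass. The set used, 1421034_a_at, had a median level of 8.87 over the 25 arrays, and 1423996_a_at one of 8.61. For 1423996_a_at the change at 24 hr was 0.90 (SE 0.25, adjusted p = 0.08) in Il10-/- lungs and 0.19 (SE 0.22, adjusted p = 0.998) in Il10+/+ lungs, and the genotype difference at 24 hr of O3 was 1.02 (SE 0.26, adjusted p = 0.0926). The third set, 1447858_x_at, was dimmer, with a median of 5.61 and differences of 0.42 (SE 0.14, adjusted p = 0.156) in Il10-/- lungs and -0.07 (SE 0.13, adjusted p = 0.998) in Il10+/+ lungs. All 3 sets had their largest change at 24 hr in Il10-/- lungs, and the 2 sets not used passed the threshold in none of these comparisons.

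**Figure D3:**
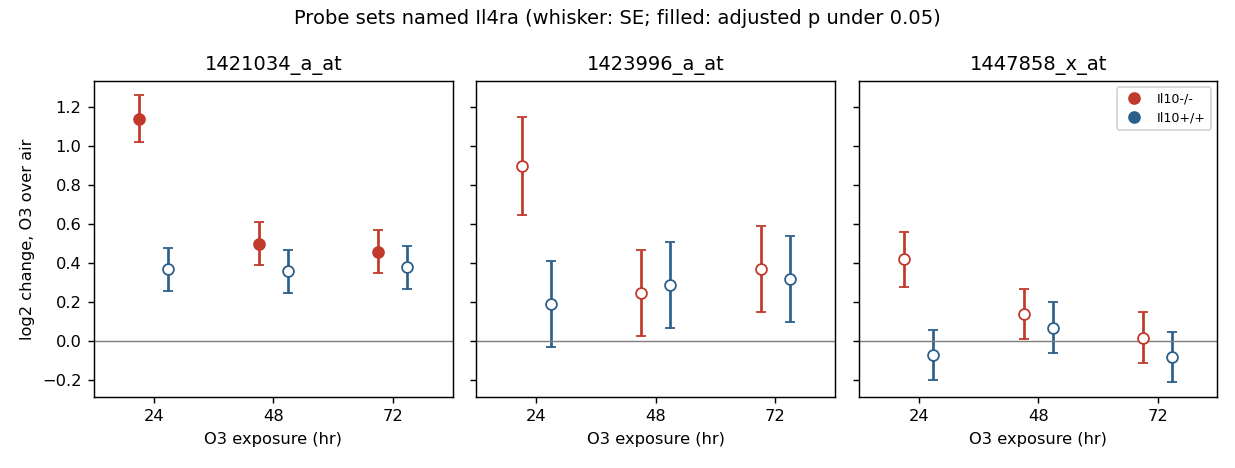
Log2 change of O3 over air after 24, 48 and 72 hr of exposure for the 3 probe sets named Il4ra, in Il10-/- and Il10+/+ lungs, with SE as whiskers and filled points where the adjusted p was under 0.05. At 24 hr in Il10-/- lungs the changes were 1.14, 0.90 and 0.42, the highest point in each panel.

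Il4ra lies at chr7:125552271-125579474 (GRCm38.p6). Its promoter, chr7:125552021-125552320 on the plus strand, is shown beside those of Il33 as the promoter of the other member that rose, and it contains none of the 5 motifs searched, so that no base is in capitals.
Il4ra start: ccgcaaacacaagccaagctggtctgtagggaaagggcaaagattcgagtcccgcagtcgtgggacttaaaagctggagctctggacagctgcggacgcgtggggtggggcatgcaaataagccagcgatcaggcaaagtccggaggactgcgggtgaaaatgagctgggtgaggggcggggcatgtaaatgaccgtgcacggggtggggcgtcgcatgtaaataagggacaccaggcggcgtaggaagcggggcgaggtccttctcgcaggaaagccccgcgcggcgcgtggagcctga

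The bases of this promoter were 62.0% G or C with 25 CpG pairs. The Il33 promoters were 46.3% and 42.3% G or C with 6 and 5 CpG pairs. The median over all promoters was 52.7% with 7 pairs, so Il4ra stood above it and both Il33 starts below. The absence of a motif says only that its letters are not in this window.

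Of 10 neutrophil markers, 2 were called higher at 24 hr of O3 in Il10-/- lungs, where 2.09% of all genes were called, and 8 did not pass. The called genes were Mmp8, a collagenase of neutrophil granules, at 1.52, and Lcn2, a siderophore-binding protein also made by epithelium, at 1.31. The genes S100a8, at 1.18 (adjusted p = 0.282), and S100a9, at 1.24 (adjusted p = 0.28), were among those that did not pass. The mean log2 level of the 10 genes was 7.96 to 8.23 on the 2 Il10-/- arrays of 24 hr O3 and 6.94 to 7.56 on the Il10-/- air arrays. It was 6.78 to 7.82 on the Il10+/+ arrays of 24 hr O3 and 7.12 to 7.83 on the Il10+/+ air arrays. Their median change at 24 hr was 1.01 in Il10-/- lungs and -0.27 in Il10+/+ lungs. In Il10+/+ lungs 0 of the 10 were called by limma, where only 0.0484% of all genes were called, and 3 had an unadjusted p under 0.05. In Il10-/- lungs their mean level was 7.58 to 7.89 after 48 hr and 7.42 to 8.10 after 72 hr of O3. At 24 hr of O3, 1 of the 10 was called higher in Il10-/- than in Il10+/+ lungs, where 0.662% of all genes were called. Averaged over O3, 5 of the 10 were called higher in Il10-/- lungs, with a median difference of 0.66. In that comparison 0.637% of all genes were called. The part of neutrophils in the level of Il4ra was not tested.

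Il13ra1, which pairs with Il4ra to bind IL-13, passed the threshold in no comparison. In Il10-/- lungs its values were 8.32, 7.97, 8.35 and 8.54 in air, 8.14 and 8.18 after 24 hr of O3, 8.15, 8.64 and 8.73 after 48 hr, and 8.38, 8.73 and 8.58 after 72 hr. In Il10+/+ lungs they were 7.70, 8.15, 7.84 and 8.26 in air, 7.71, 8.63 and 8.34 after 24 hr, 8.48, 8.41 and 8.44 after 48 hr, and 8.02, 8.41 and 8.62 after 72 hr. Only the Il10+/+ arrays of 48 hr lay wholly above air of their genotype. The change over the 3 times was 0.11 (95% interval -0.21 to 0.44, adjusted p = 0.752) in Il10-/- lungs and 0.35 (95% interval 0.04 to 0.67, adjusted p = 0.241) in Il10+/+ lungs, and every group overlapped its neighbours in the order of means.

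The other 4 probe sets of Il13ra1 had changes over the 3 times of 0.03 to 0.43 in Il10-/- lungs and 0.12 to 0.44 in Il10+/+ lungs, with no call. The genotype difference over O3 of the set used was 0.07 (95% interval -0.19 to 0.33, adjusted p = 0.88). Among the receptor genes, O3 was followed by a called rise of Il4ra and not of Il13ra1. In Il10+/+ lungs the changes over the 3 times were of like size, 0.37 (SE 0.08) for Il4ra and 0.35 (SE 0.15) for Il13ra1. The difference between the 2 genes was not tested.

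Tslp, the other epithelial cytokine, was dim, with values of 4.79 to 5.55 on the 25 arrays, below the median of every array. It was at 5.01 to 5.10 in air, 5.01 and 5.55 after 24 hr, 4.80 to 5.34 after 48 hr and 4.79 to 5.15 after 72 hr of O3 in Il10-/- lungs. In Il10+/+ lungs it was at 5.02 to 5.42 in air, 5.02 to 5.26 after 24 hr, 5.11 to 5.20 after 48 hr and 4.98 to 5.16 after 72 hr. Within each genotype every O3 group overlapped air. Its change over the 3 times was 0.04 (95% interval -0.19 to 0.27, adjusted p = 0.893) in Il10-/- lungs and -0.13 (95% interval -0.35 to 0.09, adjusted p = 0.608) in Il10+/+ lungs.

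The 4 members did not vary together closely. Over the 25 arrays, which share the exposure groups, Pearson's r was 0.468 between Il33 and Il4ra, 0.556 between Il33 and Il13ra1, 0.164 between Il4ra and Il13ra1, and -0.234 to 0.021 between Tslp and the others. The genes most like Il33 were Ctps, a CTP synthase (r = 0.952), Pgk1, a glycolytic kinase (0.945), Cyp7b1, an oxysterol hydroxylase (0.941), Lrg1, a secreted glycoprotein (0.936), and Akr1b8, an aldo-keto reductase (0.933). Those most like Il4ra were Ptpn14, a tyrosine phosphatase (0.854), Trib1, a pseudokinase (0.844), and Gadd45g, a stress-induced gene (0.843). Il13ra1 was closest to Vwa5a (0.85), Idh3a, a subunit of mitochondrial isocitrate dehydrogenase (0.81), and Papola, a poly(A) polymerase (0.795), and Tslp to Mtmr9 (0.776), Cyp4v3 (0.775) and Chdh, a choline dehydrogenase (0.746). These values describe the 25 arrays, which include the differences between exposure groups.

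Of the 9 other epithelial and type 2 cytokine genes measured, 0 were called in O3 over the 3 times in either genotype by limma, 0 had an unadjusted p under 0.05, and the median change was -0.02 in Il10-/- and -0.04 in Il10+/+ lungs, against -0.009 in Il10-/- and -0.013 in Il10+/+ lungs over all genes. Of all genes 7.55% were called in Il10-/- and 3.66% in Il10+/+ lungs in these comparisons, which also hold for the marker and protease lists below. Il13 had a log2 difference of -0.07 (SE 0.06) in both genotypes. Il5, the eosinophil growth factor, had one of 0.01 (SE 0.08) in Il10-/- and 0.10 (SE 0.08) in Il10+/+ lungs, and Il4 one of -0.06 (SE 0.07) in Il10-/- and 0.02 (SE 0.06) in Il10+/+ lungs. None of 5 eosinophil, 10 group 2 lymphoid and T helper 2 cell or 6 regulatory T cell markers was called by limma in these comparisons, and at an unadjusted p under 0.05 there were 0, 0 and 1 of them in Il10-/- lungs and 0, 1 and 0 in Il10+/+ lungs. Of 10 mast cell and basophil markers, 0 were called in Il10-/- lungs, where 1 had an unadjusted p under 0.05, and 1 in Il10+/+ lungs. That gene was Hdc, the histidine decarboxylase that makes histamine, at 0.33 (SE 0.12, adjusted p = 0.0947) in Il10-/- and 0.50 (SE 0.11, adjusted p = 0.0154) in Il10+/+ lungs. The 5 eosinophil markers had mean levels of 4.54 to 4.73 on O3 arrays and 4.61 to 4.72 on air arrays in Il10-/- lungs, and the 13 genes of proteases that cut IL-33 had 0 calls in either genotype, with 2 in Il10-/- and 3 in Il10+/+ lungs at an unadjusted p under 0.05. Means over the cytokine, eosinophil, mast cell, lymphoid, regulatory T cell and protease lists also lay below every array median. The cytokine list had means of 4.87 to 5.11. Counts of 0 in such short and dim lists do not show that no change occurred.

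Of 17 other receptor subunit genes, 2 were called over the 3 times, both higher and in both genotypes, in comparisons where 7.55% of all genes were called in Il10-/- and 3.66% in Il10+/+ lungs. Csf2rb, the beta chain shared by the receptors of IL-3, IL-5 and GM-CSF, changed by 0.69 (SE 0.20, adjusted p = 0.037) in Il10-/- and 0.75 (SE 0.20, adjusted p = 0.0322) in Il10+/+ lungs. Osmr, the oncostatin M receptor, changed by 0.64 (SE 0.12, adjusted p = 0.00151) in Il10-/- and 0.68 (SE 0.12, adjusted p = 0.00121) in Il10+/+ lungs. The partner chains named for their role did not pass: the log2 difference of Il1rap, which pairs with ST2, was -0.01 in Il10-/- and 0.03 in Il10+/+ lungs. That of Crlf2, which binds TSLP, was 0.14 in Il10-/- and 0.09 in Il10+/+ lungs, and that of Il13ra2, the decoy receptor of IL-13, 0.00 in Il10-/- and -0.04 in Il10+/+ lungs.

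Of 26 signalling genes, 2 were higher and 0 lower in Il10-/- lungs, and 2 higher and 1 lower in Il10+/+ lungs. Of all genes 7.55% were called in Il10-/- lungs, a share close to that of 2 of 26, and 3.66% in Il10+/+ lungs. Socs3, an inhibitor of cytokine receptor signalling, had means of 8.37 in air, 10.23 after 24 hr, 9.92 after 48 hr and 9.75 after 72 hr of O3 in Il10-/- lungs, and of 8.58, 9.47, 10 and 9.68 in Il10+/+ lungs. Its change over the 3 times was 1.60 (SE 0.19, adjusted p = 1.82e-05) in Il10-/- and 1.13 (SE 0.19, adjusted p = 0.000879) in Il10+/+ lungs. Like Il4ra, it had its highest mean at 24 hr in Il10-/- lungs, while in Il10+/+ lungs it was highest at 48 hr. Myd88, the adaptor used by ST2 and other IL-1 family receptors, changed by 0.45 (SE 0.09, adjusted p = 0.00315) in Il10-/- and 0.43 (SE 0.09, adjusted p = 0.00577) in Il10+/+ lungs. Stat5b fell by 0.34 (adjusted p = 0.0191) in Il10+/+ lungs and had a difference of -0.19 (adjusted p = 0.168) in Il10-/- lungs. Stat6 itself was not called, with -0.19 in Il10-/- and -0.18 in Il10+/+ lungs.

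Of 33 genes known as targets of IL-4 and IL-13, 6 were higher and 1 lower in Il10-/- lungs and 3 higher and 0 lower in Il10+/+ lungs, so that most did not pass. Of all genes 7.55% were called in Il10-/- and 3.66% in Il10+/+ lungs. The median change of the 33 was 0.06 in Il10-/- and 0.08 in Il10+/+ lungs. Retnla, a secreted resistin-like protein of epithelium and macrophages, had means of 10.33 in air, 11.94 after 24 hr, 13.26 after 48 hr and 12.95 after 72 hr in Il10-/- lungs and of 10.43, 11.91, 13.12 and 13.01 in Il10+/+ lungs. Its change over the 3 times was 2.39 (SE 0.23, adjusted p = 1.68e-06) in Il10-/- and 2.24 (SE 0.23, adjusted p = 8.79e-06) in Il10+/+ lungs. Retnla, like Il33, had its highest mean at 48 hr in both genotypes.

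Slc26a4, the anion exchanger pendrin of airway epithelium, changed by 1.83 (SE 0.26, adjusted p = 0.000123) in Il10-/- and 1.74 (SE 0.25, adjusted p = 0.000314) in Il10+/+ lungs. Ccl17, a chemokine that draws CCR4-bearing T cells, changed by 1.37 (SE 0.19, adjusted p = 9.36e-05) in Il10-/- and 1.56 (SE 0.19, adjusted p = 3.55e-05) in Il10+/+ lungs. Ccl17 was also called at 24 hr, with 1.43 (adjusted p = 0.00661) in Il10-/- and 1.53 (adjusted p = 0.0206) in Il10+/+ lungs.

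Arg1, the arginase of alternatively activated macrophages, rose by 0.79 (SE 0.19, adjusted p = 0.0136) in Il10-/- lungs and had a difference of 0.29 (SE 0.19, adjusted p = 0.49) in Il10+/+ lungs. Its 3 Il10-/- arrays of 48 hr ran between 4.71 and 6.44. Postn, the matrix protein periostin, fell by 0.50 (SE 0.09, adjusted p = 0.00132) in Il10-/- lungs and had a difference of -0.24 (SE 0.09, adjusted p = 0.142) in Il10+/+ lungs, and at 24 hr of O3 it was lower in Il10-/- than in Il10+/+ lungs by -0.74 (SE 0.13, adjusted p = 0.0108). The mean of 10 fibroblast markers was 9.45 to 10.37 on the 2 Il10-/- arrays of 24 hr. It was 10.31 to 10.48 in Il10-/- air and 10.01 to 10.40 in Il10+/+ lungs at 24 hr of O3. The part of fibroblasts in the level of Postn was not tested. Retnlb and Cdh1, named after their values were seen, were the other 2 called in Il10-/- lungs, at 0.38 and 0.32. Other well known targets did not pass, such as Muc5ac, a gel-forming mucin, at -0.04 in Il10-/- and 0.03 in Il10+/+ lungs, Ccl24, an eosinophil chemokine, at -0.13 in Il10-/- and -0.07 in Il10+/+ lungs, and Clca1, a goblet cell product, at 0.50 (SE 0.92) in Il10-/- and 0.91 (SE 0.89) in Il10+/+ lungs.

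**Figure D4:**
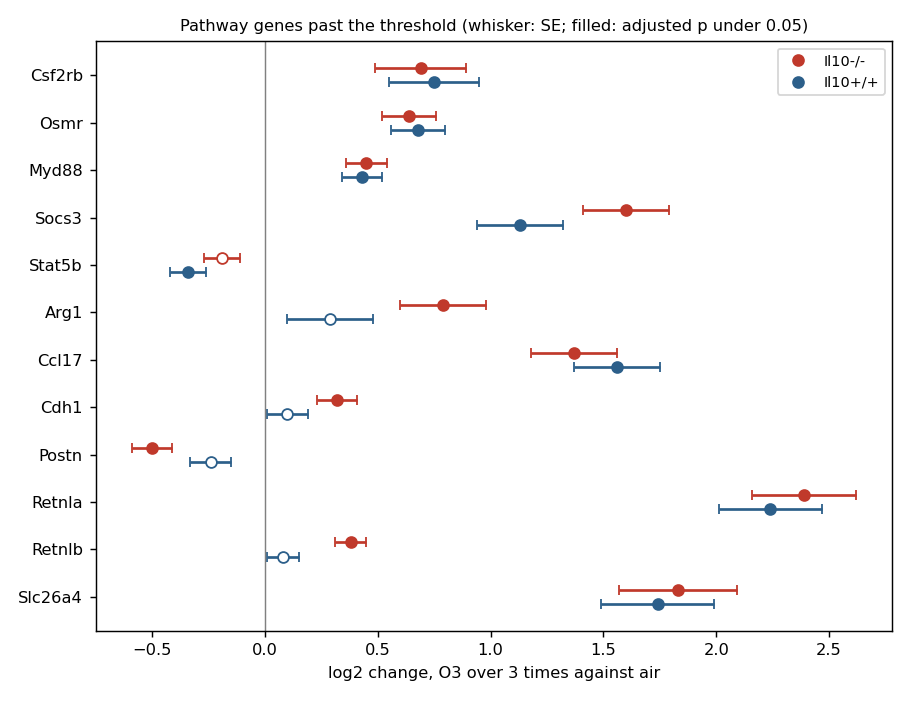
Log2 change of O3 over 3 times against air (horizontal axis) in Il10-/- (upper point) and Il10+/+ lungs (lower point) for each gene of the receptor, signalling and IL-4 and IL-13 target lists called in either genotype, with SE as whiskers and filled points where the adjusted p was under 0.05. Retnla lies highest, at 2.39 and 2.24, and Postn, at -0.50 in Il10-/- lungs, lowest.

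Of 10 markers of injured or basal epithelium, 5 were higher over the 3 times in Il10-/- lungs (Krt8, Krt18, Krt19, Cldn4 and Sprr1a) and 4 of these, all but Cldn4, in Il10+/+ lungs. Of all genes 7.55% were called in Il10-/- and 3.66% in Il10+/+ lungs in these comparisons, which also hold for the alveolar type 2 markers below. The keratin Krt8 rose by 0.79 in Il10-/- and 0.78 in Il10+/+ lungs, and the cornified envelope gene Sprr1a by 2.99 in Il10-/- and 3.00 in Il10+/+ lungs. The 5 genes that define basal cells, Krt5, Krt14, Krt15, Trp63 and Ngfr, were not called in either genotype, with differences of -0.10 to 0.04 in Il10-/- and -0.09 to 0.14 in Il10+/+ lungs. The mean log2 level of the 10 genes was 6.91 to 7.56 on O3 arrays and 6.65 to 6.94 on air arrays in Il10-/- lungs, and 7.07 to 7.64 on O3 arrays and 6.64 to 6.82 on air arrays in Il10+/+ lungs. Of 9 markers of alveolar type 2 cells, 1 was called higher in Il10-/- lungs (Sftpd, at 0.32) and 0 by limma in Il10+/+ lungs, where 3 had an unadjusted p under 0.05. The part of these cells in the level of Il33 was not tested.

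Of 10 macrophage markers, 3 were called higher over the 3 times in Il10-/- lungs, namely the scavenger receptors Marco, at 0.96, and Msr1, at 0.43, and the lectin Lgals3, at 0.56. In Il10+/+ lungs 1 was called, Lgals3, at 0.65. The other 7 in Il10-/- and 9 in Il10+/+ lungs did not pass, and the median change of the 10 was 0.25 and 0.14. Of all genes 7.55% were called in Il10-/- and 3.66% in Il10+/+ lungs. The mean log2 level of the 10 markers was 8.86 to 9.25 on O3 arrays and 8.76 to 8.84 on air arrays in Il10-/- lungs, and 8.77 to 9.27 on O3 arrays and 8.79 to 9.01 on air arrays in Il10+/+ lungs. The part of macrophages in the levels of Retnla, Arg1 and Ccl17 was not tested.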

How the data were processed

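The authors ran Robust Multichip Average in RMAExpress on the intensity files of Affymetrix mouse arrays, version not given in the sources used here, and deposited log2 values, which were used unchanged. Quantile normalization of this kind assumes like distributions on all arrays. Genes were named with the platform annotation; of the 20393 probe sets with 1 symbol, the one with the highest mean represented its gene. Positions and promoters are from RefSeq (GRCm38.p6).

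A limma 3.58.1 model (R 4.3.3) with 1 mean per genotype and exposure was fitted over 25 arrays, air times pooled, and p-values were adjusted by Benjamini-Hochberg over 12394 genes, with a threshold of 0.05. The number of arrays limits the precision. The series' design text calls the arrays biological replicates. The authors also left out 1 array of Il10-/- mice in O3 for 24 hr, without naming it in the sources used here. The fit was also run on simulated data with independent noise in each gene, which cannot show how stable the calls are on these arrays.

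The members and gene lists were chosen with earlier results of these data known. Genes named were the members, at most 4 called genes per list and direction over the 3 times, the 5 genes most like Il33 and the 3 most like each other member. Type 2 cytokines, receptor partners and targets that did not pass were named for their roles. With values known, the fifth called epithelial marker and the uncalled basal and neutrophil markers were also named. Figures were drawn with matplotlib 3.10.9.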

Additional observations from a re-analysis of the deposited data

How the results depend on the processing

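Of 270 values of 25 results under alternatives other than leaving out 1 array, 220 kept their direction and their side of the threshold. Leaving out 1 array at a time did so for 608 of 625. Causes were not tested.

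Over all 26 arrays, Il33 at 24 hr in Il10-/- mice was -0.37. Over the 3 times, Il33 lost its call in Il10-/- (0.66) and Il10+/+ mice (1.06), Il4ra lost its call in Il10+/+ mice (0.37), and in Il10-/- mice Il13ra1 was -0.05 and Tslp -0.09. The genotype difference of Il4ra lost its call at 24 hr (0.48) and over O3 (0.27), where Il33 was -0.30 and Il13ra1 -0.09.

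With only the arrays compared, Il4ra at 24 hr lost its call against air in Il10-/- mice (1.14) and between genotypes (0.82). With array weights these were 1.14 and 0.81, not called, and Il13ra1 over the 3 times in Il10+/+ mice was called (0.44). With the letter c that ends some source names as a covariate, Tslp over the 3 times in Il10-/- mice was -0.07. With all probe sets of a gene averaged, Il4ra over the 3 times in Il10+/+ mice lost its call (0.20).

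Read from probe set 1423996_a_at, Il4ra was not called at 24 hr in Il10-/- mice (0.90), over the 3 times in Il10-/- (0.51) and Il10+/+ mice (0.26), or between genotypes at 24 hr (1.02) and over O3 (0.55). From the dim 1447858_x_at these were 0.42, 0.19, -0.02, 0.33 and 0.07, and the changes in Il10+/+ mice were -0.07 at 24 hr and -0.08 at 72 hr. From 1425625_at, Il13ra1 differed between genotypes over O3 by -0.02. Without the 24 hr Il10-/- arrays, chosen after seeing the data, Tslp over O3 in Il10-/- mice was -0.05 and the genotype difference of Il4ra 0.16, not called.

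Leaving out 1 array, Il4ra over the 3 times in Il10+/+ mice ran from 0.28 to 0.42, Tslp over the 3 times in Il10-/- mice from -0.05 to 0.13, and the genotype difference over O3 from -0.10 to 0.17 for Il33, -0.02 to 0.14 for Il13ra1 and -0.13 to 0.05 for Tslp.

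Arrays of different groups share only a replicate number. Deviations of same-numbered arrays had a median r of 0.104 (-0.305 to 0.461), against -0.056 for other numbers, and 20 of 25 arrays correlated best with their own number. With the replicate number as a block, no call of these results changed (Il33 over the 3 times 1.04 in Il10-/- and 1.09 in Il10+/+ mice), and 1040 and 446 genes were called, against 936 and 454.

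Counts of called genes moved more. Over the alternatives, O3 over the 3 times called 302 to 1790 genes in Il10-/- and 21 to 1628 in Il10+/+ mice, 24 hr in Il10-/- mice 0 to 695 (259 in the reported fit, at least 599 at an unadjusted p under 0.05), and the genotype difference 0 to 111 at 24 hr (82) and 9 to 118 over O3 (79). Leaving out 1 array these were 501 to 1975, 227 to 824, 161 to 1593, 22 to 1008 and 35 to 857. Tslp fell below the filter on dim genes, so it has no value there, and air of the same time gives none at 72 hr or over the 3 times. Dim probe sets such as that of Tslp limit what a change can show.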
